A study of Mus musculus with 4 samples.

Results

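The SLAM family receptors and the SH2 domain adaptors that work with them were followed in CD4 T cells made to express Tox. The members were 9 genes listed by name, *Slamf1*, *Slamf6*, *Slamf7*, *Ly9*, *Cd84*, *Cd48*, *Cd244*, *Sh2d1a* and *Sh2d2a*, out of 24369 genes in the deposited tables. RNA-seq was carried out on 4 libraries, 2 from cells transduced with an empty vector retrovirus (EV RV, GFP alone) and 2 from cells transduced with a retrovirus that encodes Tox along with GFP (Tox RV). All of these cells were naïve CD4 T cells from the spleen of wild-type C57BL/6 mice, with 2 mice behind each group. They were activated without polarizing cytokines by plate-bound anti-CD3 (2 μg/ml), soluble anti-CD28 (4 μg/ml) and human IL-2 (100 U/ml), transduced on day 2 and stimulated again for 5 h on day 5. The methods give biotinylated anti-CD3 with streptavidin for this last step, whereas the design text also names anti-CD28. Only GFP-positive CD4 cells were sorted, so both groups hold infected cells. The added Tox came from the viral promoter rather than from its own gene, and the level per cell is not known. Counts per gene do not separate viral *Tox* from the cell's own.

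SLAM receptors are immunoglobulin superfamily proteins on blood cells, and most of them bind another copy of themselves on the neighbouring cell. CD244 is an exception, since it binds CD48, a lipid-anchored surface protein without a signalling tail that also binds CD2 in the mouse. The tails of most SLAM receptors carry tyrosine switch motifs that recruit SAP, the product of *Sh2d1a*. SAP in turn brings in the kinase FYN and competes with the phosphatases SHP-1 and SHIP-1 for the same motifs. In CD4 T cells SAP is known for its part in lasting contacts with B cells, in help by T follicular helper (TFH) cells and in IL-4 production. *Sh2d2a* encodes TSAd, a T cell adaptor that binds LCK. TSAd shares the SH2 domain with SAP but belongs to another adaptor family.

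The 7 receptor and ligand genes lie side by side on chromosome 1 of mm10, in a cluster of 390.2 kb from 171558718 to 171948958 (RefSeq annotation of GRCm38.p6). Their order along the chromosome is *Cd244*, *Ly9*, *Slamf7*, *Cd48*, *Slamf1*, *Cd84* and *Slamf6*, with *Ly9* and *Slamf7* on the minus strand. *Sh2d2a* lies on chromosome 3 from 87846755 to 87855722, and *Sh2d1a* on chromosome X from 42502565 to 42522097, both on the plus strand. All 9 are protein coding, and none overlaps another protein-coding gene in this annotation. RefSeq promoter windows were given for 6 of the 9 genes, and the 250 bases upstream of the annotated start were searched for TGANTCA. This is the core sequence bound by AP-1 factors, a family that includes BATF and JunB, and it reads the same on both strands. It was present in 3 of the 6 windows (*Slamf7*, *Cd84* and *Cd244*), and in 6.75% of the 32851 windows of the same length in the whole table. The motif was chosen after the expression values were seen, so this count describes the windows and is no independent result. The 3 windows with a match are shown, with the match in capitals. Those of *Slamf1*, *Slamf6* and *Cd48* held no match.
*Slamf7*, chr1:171649000-171649249, minus strand: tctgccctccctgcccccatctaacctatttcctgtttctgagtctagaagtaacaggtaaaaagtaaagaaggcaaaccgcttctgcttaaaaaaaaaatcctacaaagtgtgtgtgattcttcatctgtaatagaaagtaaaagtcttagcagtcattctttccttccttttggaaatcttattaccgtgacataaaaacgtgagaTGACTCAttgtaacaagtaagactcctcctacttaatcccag
*Cd84*, chr1:171839447-171839696, plus strand: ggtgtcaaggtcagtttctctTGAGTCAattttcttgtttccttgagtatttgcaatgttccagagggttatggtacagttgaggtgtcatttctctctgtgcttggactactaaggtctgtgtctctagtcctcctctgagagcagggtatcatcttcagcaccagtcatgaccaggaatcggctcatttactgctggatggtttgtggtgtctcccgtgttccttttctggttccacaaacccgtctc
*Cd244*, chr1:171558943-171559192, plus strand: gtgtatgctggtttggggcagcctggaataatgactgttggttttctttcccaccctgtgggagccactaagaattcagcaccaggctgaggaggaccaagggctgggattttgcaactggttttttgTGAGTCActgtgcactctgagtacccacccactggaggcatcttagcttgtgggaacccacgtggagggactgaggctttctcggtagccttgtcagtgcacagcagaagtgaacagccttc
The match began 42 bases upstream of the start in *Slamf7*, 229 bases upstream in *Cd84* and 122 bases upstream in *Cd244*. The *Slamf7* window belongs to a start that lies 4038 bases inside the gene, because a longer RefSeq model begins further upstream. The starts of the *Cd244* and *Cd48* windows also lie inside their genes, by 475 and 747 bases. A match in a window is a description of the sequence, and binding was not measured in these libraries.

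All members were detected, over a wide range of levels. TPM, the share of all transcripts with gene length taken into account, averaged 106.7 for *Cd48*, 61.9 for *Sh2d2a*, 59.0 for *Sh2d1a*, 47.1 for *Ly9*, 33.1 for *Cd84*, 26.2 for *Slamf7*, 19.2 for *Slamf1*, 9.79 for *Slamf6* and 0.490 for *Cd244* over the 4 libraries. In this order *Ly9* was above *Cd84*, *Slamf1* above *Slamf6* and *Slamf6* above *Cd244* in 4 of 4 libraries. Every other pair of neighbours changed places in at least 1 library, and *Sh2d2a* was above *Sh2d1a* in 2 of 4. By mean TPM the ligand *Cd48* stood highest and its SLAM partner *Cd244* lowest, with between 141 and 352 times as much *Cd48* as *Cd244* TPM in each library.

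**Figure D1:**
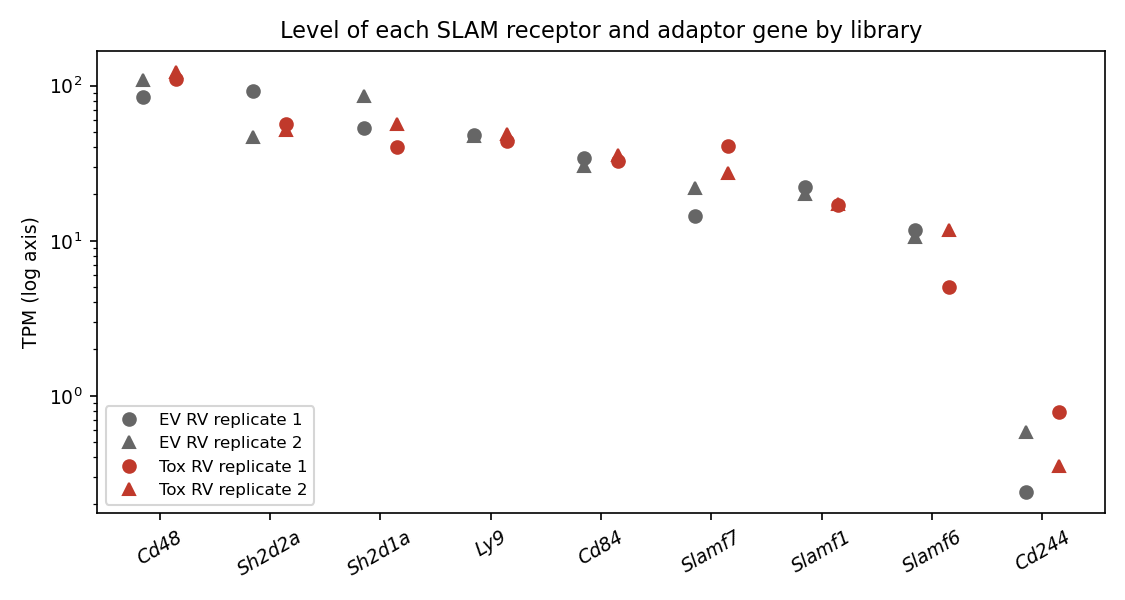
TPM on a log axis for each of the 9 genes, with 1 point per library (grey, EV RV; red, Tox RV; circles, replicate 1; triangles, replicate 2), in order of the mean over the 4 libraries. The red points of *Slamf7* (41.0 and 27.4 TPM) lie above its grey points (14.5 and 22.0 TPM), and *Cd244* lies below 1 TPM in every library.

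To ask whether Tox moved these genes, the groups were compared by edgeR's quasi-likelihood test on the RSEM counts of all 14143 genes that passed a low-count filter, with Benjamini-Hochberg adjustment. All 9 members passed the filter. None of the 9 had an adjusted p-value below 0.05, and this was also the case for the genes tested as a whole (0 genes, 0%). At an unadjusted p-value below 0.05 there was 1 member, *Slamf7*, beside 512 genes (3.62%) of all tested. The libraries of Tox RV were both above those of EV RV in 3 of the 9 members (*Slamf7*, *Cd48* and *Cd84*), against 18.6% of all genes, and below both in 1 (*Slamf1*), against 17.4%. The groups therefore did not overlap in 4 of 9 members and in 36% of all genes. The fitted log2 fold change was above 0 for 5 members and below 0 for 4, with a median of 0.04 beside 0.00 for all genes. DESeq2, run as an alternative, called 22 of all genes and 0 members.

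*Tox* itself separated the groups, with 11.7 and 5.73 CPM for EV RV against 121 and 99.9 CPM for Tox RV. CPM are read counts brought to a common library size with TMM scaling, and each pair of values is given as replicate 1, then replicate 2. For *Tox* the fit gave a log2 fold change of 3.68 (SE, the standard error, 0.38, adjusted p = 0.490 by edgeR's quasi-likelihood fit). *Tox* was called by DESeq2 (adjusted p = 3.79e-24), and edgeR fits that left out 1 library gave log2 fold changes from 3.25 to 4.27. Its adjusted p ranged from 3.79e-24 to 0.854 over all alternatives. Library depth was between 46990044 and 74548708 counts, and pre-ribosomal RNA (*Rn45s*) took 24.7% of the counts of EV RV replicate 1 and far less in the other 3 libraries, down to 7.14% in Tox RV replicate 2. Since EV RV replicate 1 stood furthest apart in this share, the members were also fitted without each library in turn. Each of these fits compared 1 library with 2, so its log2 fold change is given without a p-value. The fit without EV RV replicate 2 kept only EV RV replicate 1 as its control.

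*Slamf7*, which encodes a self-binding receptor also known as CRACC, had the largest difference of the 9. Its level was 33.2 and 53.1 CPM for EV RV and 102 and 68.3 CPM for Tox RV. Both Tox RV libraries were above both EV RV libraries, and the replicates of each group were themselves far apart. The group values were 43.1 ± 14.0 CPM (SD, n = 2) with the empty vector and 85.2 ± 24.0 CPM (SD, n = 2) with Tox. This was a 1.97-fold higher level in Tox RV, a log2 fold change of 0.98 (95% interval 0.22 to 1.74). By edgeR's quasi-likelihood fit the unadjusted p was 0.020 and the adjusted p 0.897, so the difference did not pass the correction for all genes tested. The log2 fold change was 0.65 without Tox RV replicate 1 and 0.68 without EV RV replicate 1, and 1.36 without EV RV replicate 2 and 1.25 without Tox RV replicate 2. Over the alternatives that kept all 4 libraries, the adjusted p ranged from 0.230 (edgeR's quasi-likelihood fit with a replicate block) to 0.911 (limma on log2 TPM).

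*Slamf6*, which encodes Ly108, a receptor known from TFH cells, was decided by a single library. It was at 16.2 and 15.2 CPM for EV RV, and at 7.52 and 17.6 CPM for Tox RV. The low value in Tox RV replicate 1 stood against the other 3 libraries, and the groups overlapped. The log2 fold change was -0.32 (SE 0.40, adjusted p = 0.905 by edgeR's quasi-likelihood fit), and it turned to 0.16 without Tox RV replicate 1 and was -1.06 without Tox RV replicate 2. Tox RV replicate 1 also had the highest *Slamf7* value, and the ratio of *Slamf7* to *Slamf6* TPM was 8.13 in this library, 2.32 in Tox RV replicate 2 and 1.23 and 2.10 for EV RV.

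*Slamf1* encodes the receptor that gave the family its name, and its replicates were close together. It was at 34.0 and 32.0 CPM for EV RV and at 28.1 and 28.7 CPM for Tox RV. Both Tox RV libraries were therefore lower, by a small margin. Its log2 fold change was -0.22 (SE 0.16, adjusted p = 0.897 by edgeR's quasi-likelihood fit), with a range of -0.25 to -0.18 when each library was left out in turn.

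*Ly9* and *Cd84*, the self-binding receptors with the highest mean TPM, were nearly level across the libraries. *Ly9* was at 66.6 and 69.4 CPM for EV RV and at 66.3 and 73.4 CPM for Tox RV, and the groups overlapped. Its log2 fold change of 0.04 had a 95% interval of -0.37 to 0.45, and its sign changed with the choice of library and of expression unit. *Cd84* was at 64.9 and 60.4 CPM for EV RV and at 67.3 and 73.2 CPM for Tox RV. The Tox RV libraries of *Cd84* were higher on this scale but overlapped the EV RV libraries in TPM. Its log2 fold change was 0.17, with a 95% interval of -0.24 to 0.57 and a range of 0.11 to 0.22 with each library left out. These intervals leave room for differences of that size, and neither gene was shown to be equal in the 2 groups.

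*Cd48*, the ligand of CD244 and CD2, was higher in Tox RV libraries. It was at 50.1 and 67.7 CPM for EV RV and at 71.7 and 79.4 CPM for Tox RV, without overlap. The log2 fold change was 0.36 (SE 0.21, adjusted p = 0.897 by edgeR's quasi-likelihood fit). EV RV replicate 1 held the lowest value, and without it the log2 fold change was 0.15, whereas it was 0.60 without EV RV replicate 2. The lowest adjusted p over the alternatives that kept all 4 libraries was 0.621, by edgeR's quasi-likelihood fit with a replicate block. *Cd244*, best known from NK cells and exhausted CD8 T cells, was the least abundant member, with 22 and 101 counts for EV RV and 118 and 43 counts for Tox RV. The groups overlapped, and the log2 fold change of 0.52 had a 95% interval of -0.98 to 2.02. It was -0.18 without Tox RV replicate 1 and 1.38 without EV RV replicate 2, so no direction could be given.

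*Sh2d1a*, the gene of SAP, was at 21.5 and 36.1 CPM for EV RV and at 17.5 and 24.7 CPM for Tox RV. The groups overlapped, as Tox RV replicate 2 was above EV RV replicate 1. Its log2 fold change was -0.45 (SE 0.31, adjusted p = 0.897 by edgeR's quasi-likelihood fit), the lowest of the 9 members. It was -0.78 without EV RV replicate 1 and -0.02 without EV RV replicate 2, the library with the highest value. *Sh2d2a*, the gene of TSAd, was at 254 and 134 CPM for EV RV and at 169 and 155 CPM for Tox RV. Both Tox RV libraries lay between the EV RV libraries. For this gene the log2 fold change was -0.26 (SE 0.31, adjusted p = 0.905 by edgeR's quasi-likelihood fit), 0.27 without EV RV replicate 1 and -0.64 without EV RV replicate 2.

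**Figure D2:**
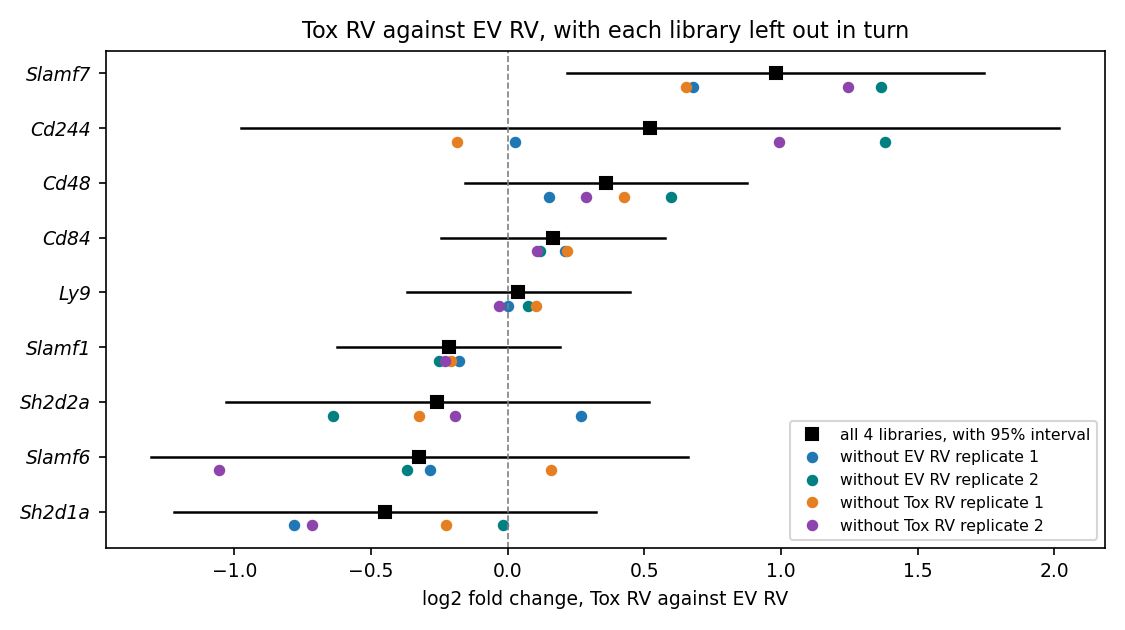
Log2 fold change of Tox RV against EV RV for each of the 9 genes, with black squares and lines for the fit on all 4 libraries and its 95% interval, and coloured points for the fits that each left out 1 library. The interval of *Slamf7* (0.22 to 1.74) lies above 0 before adjustment over all genes, and the points of *Slamf6*, *Ly9*, *Cd244* and *Sh2d2a* fall on both sides of 0.

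Within a library, the 6 receptors with a signalling tail were also compared as shares of their summed TPM, a measure that does not depend on scaling between libraries. The sum itself was 131.2 and 130.8 TPM for EV RV and 140.4 and 141.1 TPM for Tox RV. *Slamf7* made up 11.1% and 16.8% of it for EV RV and 29.2% and 19.4% for Tox RV, so the Tox RV shares were the higher ones. *Slamf1* made up 17.0% and 15.3% for EV RV and 12.1% and 12.3% for Tox RV. *Ly9* was the largest share in each library, at 31.3% to 36.7%. Without *Slamf7* the sum was 116.7 and 108.8 TPM for EV RV and 99.4 and 113.7 TPM for Tox RV, and the groups overlapped. The summed receptors per *Sh2d1a* in TPM were 2.45 and 1.53 for EV RV and 3.50 and 2.48 for Tox RV. These ratios were higher in Tox RV, but Tox RV replicate 2 was barely above EV RV replicate 1. With *Slamf7* left out of the sum, the ratios of the groups overlapped. A share or a ratio of this kind shows only that genes differed unequally, and mRNA levels do not give the amount of protein on the surface.

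**Figure D3:**
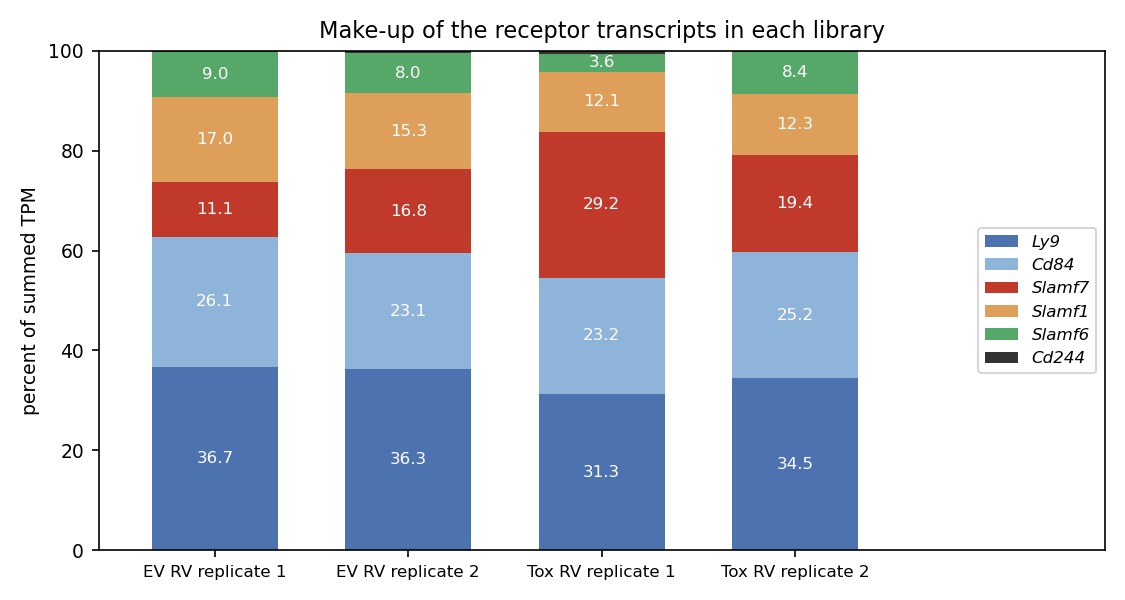
Share of the summed TPM of the 6 receptors with a signalling tail that each receptor took, in percent, with 1 bar per library and *Cd244*, under 1% in each, as the thin band at the top. The *Slamf7* band is 11.1% and 16.8% in the EV RV bars and 29.2% and 19.4% in the Tox RV bars.

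The other genes of the family and of the pathway were read from the same fit. *Slamf8*, a family member best known from myeloid cells, was at 2.09 and 1.92 CPM for EV RV and at 0.569 and 1.08 CPM for Tox RV. Both Tox RV libraries were below both EV RV libraries (log2 fold change -1.28, SE 0.42, unadjusted p = 0.023 and adjusted p = 0.897 by edgeR's quasi-likelihood fit). Fits without 1 library gave values from -1.81 to -0.89. The 3 myeloid markers that were tested did not move together. *Fcer1g* was lower in both Tox RV libraries (0.711 and 0.473 CPM for EV RV, 0.316 and 0.231 CPM for Tox RV), *Itgam* was higher in both (0.26 and 0.25 CPM against 0.696 and 0.328 CPM), and *Csf1r* overlapped. The part of myeloid RNA in the *Slamf8* values was not tested. *Cd2*, the other partner of CD48, ranged from 296 to 330 CPM, with a log2 fold change of -0.08 that was 0.04 with scaling by library totals. *Slamf9*, at 0 to 3 counts, and *Sh2d1b1*, at 0 to 9 counts, did not reach the filter. *Sh2d1b1* encodes EAT-2, the SAP relative that SLAMF7 uses in NK cells. Its near-identical copy *Sh2d1b2* had 0 counts in each library, where 3 counts would be between 0.0394 and 0.0711 CPM, and reads shared by the copies cannot be divided with certainty.

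Of the 16 signalling partners of SAP and TSAd, 15 were tested, with 12 above and 3 below 0 in log2 fold change and 0 called. Their median log2 fold change was 0.07, beside 0.00 for all genes. The largest differences were those of *Ptpn6* and *Vav1*. *Ptpn6*, which encodes the phosphatase SHP-1, was at 218 and 182 CPM for EV RV and at 335 and 274 CPM for Tox RV. Its log2 fold change was 0.60 (SE 0.19, unadjusted p = 0.022 and adjusted p = 0.897 by edgeR's quasi-likelihood fit). *Vav1*, which encodes a guanine nucleotide exchange factor downstream of FYN, was at 126 and 120 CPM for EV RV and at 196 and 173 CPM for Tox RV. Its log2 fold change was 0.58 (SE 0.17, unadjusted p = 0.014 and adjusted p = 0.897 by edgeR's quasi-likelihood fit). In both genes the groups did not overlap and the replicates of a group lay closer together than in *Slamf7*. Of the 15 partners tested, 3 were above and 1 below without overlap, against 18.6% and 17.4% of all genes. *Fyn*, the kinase that SAP recruits, had a log2 fold change of 0.10 (SE 0.23), and *Inpp5d*, which encodes SHIP-1, one of 0.07 (SE 0.18), and both had overlapping groups.

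Since SAP is tied to TFH cells, and SLAM genes are expressed by activated T cells, genes of both states were read as well. Of 9 TFH genes, 8 were tested and 0 were called. In log2 fold change 6 were above and 2 below 0 (7 above and 1 below 0 with scaling by library totals). Their median log2 fold change was 0.60, beside 0.00 for all genes. *Pdcd1*, the gene of the inhibitory receptor PD-1, was at 24.0 and 23.8 CPM for EV RV and at 90.0 and 73.2 CPM for Tox RV, without overlap (log2 fold change 1.77, SE 0.19, adjusted p = 0.490 by edgeR's quasi-likelihood fit). DESeq2 called *Pdcd1* (adjusted p = 1.06e-08), and its adjusted p ranged from 1.06e-08 to 0.854 over all alternatives. *Tox2*, a relative of *Tox*, had 5 and 4 counts for EV RV and 19 and 33 counts for Tox RV, without overlap. At these low counts its log2 fold change was 2.51 (SE 0.74, adjusted p = 0.897 by edgeR's quasi-likelihood fit). Of the 8 TFH genes tested, 4 were above and 1 below without overlap, against 18.6% and 17.4% of all genes. The 2 TFH genes below 0 were *Icos* and *Bcl6*. *Icos* was at 157 and 184 CPM for EV RV and at 127 and 146 CPM for Tox RV, without overlap. *Bcl6* was at 46.6 and 13.3 CPM for EV RV and at 28.9 and 29.0 CPM for Tox RV, with overlap. Of 12 genes induced by the T cell receptor, 6 were above and 6 below 0, or 8 above and 4 below 0 with scaling by library totals, and 0 were called. *Nr4a1*, an early response gene, was at 86.3 and 36.3 CPM for EV RV and at 127 and 85.0 CPM for Tox RV, with overlap and a log2 fold change of 0.79 that was 0.30 without EV RV replicate 2 and 1.54 without EV RV replicate 1. *Nr4a2*, of the same family, was at 14.0 and 13.1 CPM for EV RV and at 23.1 and 18.9 CPM for Tox RV, without overlap (log2 fold change 0.64, SE 0.19, adjusted p = 0.897 by edgeR's quasi-likelihood fit). Of the 12, 3 were above and 2 below without overlap, against 18.6% and 17.4% of all genes. The 2 below were *Myc* and *Il2ra*. *Myc* was at 226 and 166 CPM for EV RV and at 147 and 117 CPM for Tox RV. *Il2ra* was at 1117 and 1322 CPM for EV RV and at 1053 and 934 CPM for Tox RV. The part of restimulation in the *Slamf7* values was not tested.

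**Figure D4:**
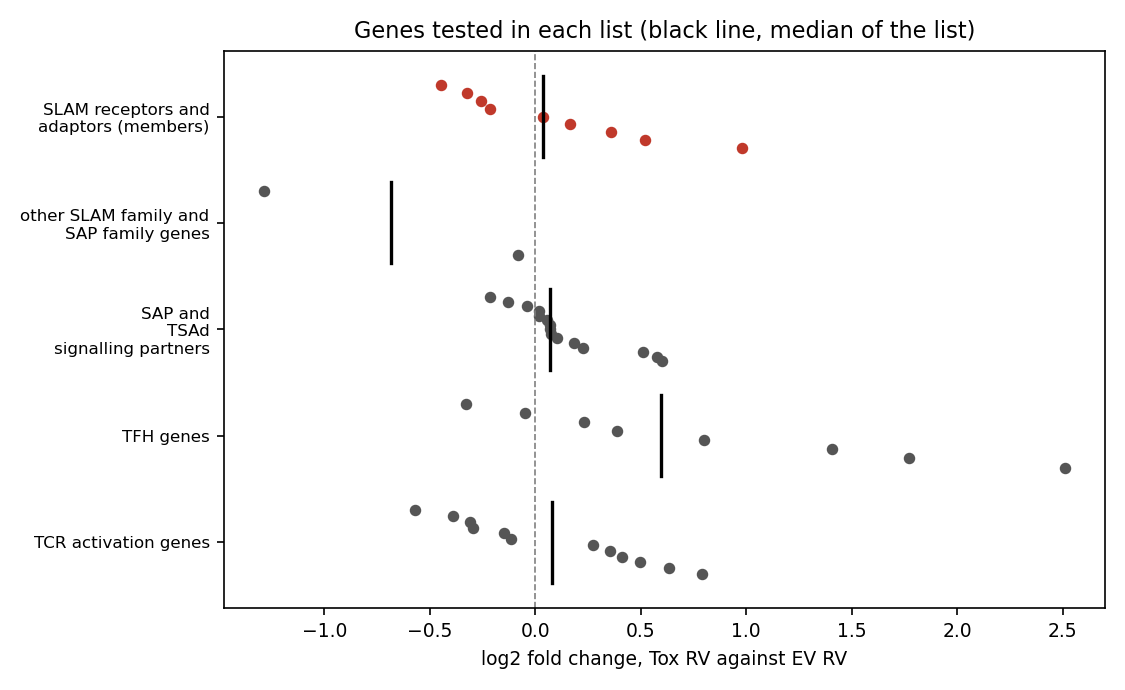
Log2 fold change of Tox RV against EV RV for each gene tested in 5 lists, with 1 point per gene and a black line at the median of the list. The 9 members (red) lie between -0.45 and 0.98 with a median of 0.04, and the 15 signalling partners have a median of 0.07.

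Other blood cells also express several members, so their markers were read in the same libraries. In bulk RNA, fewer cells of a type and less RNA per cell cannot be told apart. T cell markers were high (7 of 9 read), with a summed level of 1553 to 2113 CPM in EV RV and 1855 to 2112 CPM in Tox RV libraries. *Cd8a* and *Cd8b1* together were at 3.88 to 4.65 CPM in EV RV and 4.26 to 4.77 CPM in Tox RV libraries. Of 5 B cell markers 2 were tested, with *Ms4a1* at 0 in all libraries and a summed level of 1.23 to 1.64 CPM in EV RV and 1.49 to 1.52 CPM in Tox RV libraries. Of 6 myeloid markers 3 were tested, with *Lyz2* at 0 to 2 counts and a summed level of 0.959 to 1.56 CPM in EV RV and 1.00 to 1.55 CPM in Tox RV libraries. The NK cell markers, which bear on *Slamf7* and *Cd244*, summed to 131.7 and 121 CPM for EV RV and to 100.2 and 78.2 CPM for Tox RV, so the sum was lower in both Tox RV libraries. All 4 of the 6 NK cell markers tested were below 0 in log2 fold change, and *Ncr1* and *Klra8* had 0 counts in each library. *Klrk1* was at 36.6 and 10.5 CPM for EV RV and at 17.2 and 4.86 CPM for Tox RV, and *Klrd1* at 14.2 and 1.90 CPM for EV RV and at 10.2 and 1.99 CPM for Tox RV. Both were thus present and higher in replicate 1 of each group, with overlap, and *Klrb1c* was at 0.184 to 1.09 CPM in the same pattern. Most of the NK cell sum was *Eomes*, which activated T cells also express, at 79.8 and 109 CPM for EV RV and 72.2 and 71.2 CPM for Tox RV. *Eomes* was the 1 tested NK cell marker without overlap between the groups. The part of NK cell RNA in the *Cd244* and *Slamf7* values was not tested.

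The 16 other protein-coding genes within 200 kb of either end of the cluster gave the background of the locus. Of these, 12 were tested, with 5 above and 7 below 0, a median log2 fold change of -0.04 and 0 called. With scaling by library totals 9 were above and 3 below 0. Both Tox RV libraries lay above those of EV RV in 1 of the 12 genes, against 18.6% of all genes, and below in 0, against 17.4%. *F11r*, an adhesion gene, had 19 to 27 counts and a log2 fold change of -0.34 (SE 0.49) with overlap, and fits without 1 library gave -0.61 to -0.07.

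A last readout was the mix of annotated transcripts, which RSEM reports as the mean transcript length of a gene weighted by abundance. The 6 members with 1 annotated transcript cannot show a change in this measure. *Ly9*, with 3 transcripts, had a mean length of 2462 and 2470 bases for EV RV and of 2469 and 2472 bases for Tox RV. *Cd84*, also with 3, ranged from 3320 to 3324 bases, and *Sh2d2a*, with 2, from 4738 to 4739 bases over the 4 libraries. In all 3 genes the groups overlapped, and the differences between groups of 3.88, -0.14 and 0.22 bases were below the spread between replicates.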

How the data were processed

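RNA from sorted GFP-positive cells was sequenced in 4 libraries, grouped by the sample titles. After a quality check by fastqc, the authors mapped the reads to mm10 RefSeq transcripts through bowtie and estimated gene abundance with RSEM. Versions and use of strand are not given in the sources used here. The deposited expected counts are RSEM estimates of fragments per gene, not normalized, and the deposited TPM values are RSEM's own. The gene length was taken from the same files. Depth was 46990044 to 74548708 counts, and a count of 3 was taken as the floor. A further deposited table, whose column sums do not match its name, was not used.

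Expected counts were rounded and tested in R 4.3.3 with edgeR 4.0.16 (filterByExpr with minimum count 10, TMM, glmQLFit and glmQLFTest), adjusted by Benjamini-Hochberg over 14143 genes and called below 0.05. Standard errors came from the fold change and the F statistic, and 95% intervals from the t distribution with the fit's degrees of freedom. Alternatives were DESeq2 1.42.0 with default parameters (the study's tool), median-of-ratios scaling, library totals, no low-count filter, a replicate block, limma 3.58.1 on log2(TPM + 1) and log2(TPM + 0.1), and leaving out each library. Methods were tested on simulated data. Scaling by library totals moved the median log2 fold change of all genes from 0.00 to 0.12. Promoter windows are from RefSeq (GRCm38.p6).

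Of the 150-base stretches in GENCODE M21 transcripts, 7 members shared none with another gene. *Slamf7* shared 3.36% with the antisense gene *Gm37787*, and *Sh2d1a* shared 23.4% with *Tenm1* on the other strand, which had 19 to 63 counts. The counts rest on RefSeq transcripts instead, for *Sh2d1a* on 1 transcript of 819 bases. These percentages are therefore not shares of the counted sequence or of the reads.

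The members and lists were chosen with earlier results of these data known. Genes named beside the members were all other family genes, the 2 of each pathway list with the largest absolute log2 fold change, *Tox*, and the 3 genes most like the member of widest range. Cell type marker lists were given by their sums and defining genes. *Fyn*, *Inpp5d*, *Icos*, *Bcl6*, *Myc*, *Il2ra*, the single markers printed and the promoter motif were chosen after the values were seen. Of the genes near the cluster, 1 named by the rule is not reported here.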

Additional observations from a re-analysis of the deposited data

How the results depend on the processing

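Over all genes the test called 0 genes, against 22 with DESeq2, 22 without the low-count filter, 16 with the replicate block and between 1 and 600 with 1 library left out (600 without EV RV replicate 2). The 0 members called were also 0 under all 11 alternatives. The median log2 fold change of the members stayed between -0.05 and 0.16. Of 99 member values under alternatives, 93 kept their direction and their side of the threshold. *Ly9* was at -0.0472 and -0.0482 in the limma fits on log2(TPM + 1) and log2(TPM + 0.1), and its fits without 1 library ran from -0.0334 to 0.104. With each library left out, *Slamf6* ranged from -1.06 to 0.16, *Cd244* from -0.18 to 1.38 and *Sh2d2a* from -0.64 to 0.27. *Cd2* was at 0.0377 with library totals. For the changes of count under DESeq2, the block and the filter the cause was not tested. The replicate block gave *Slamf7* a log2 fold change of 0.99 (adjusted p = 0.230 by edgeR's quasi-likelihood fit), and it called *Tox* (adjusted p = 1.08e-05) and *Pdcd1* (adjusted p = 0.00133), as did the fit without the low-count filter. A number is not known to mark 1 mouse. Deviations from the group means of libraries with the same number correlated across genes at r = 0.38, a single value since 2 libraries deviate equally. Without overlap between groups there were 4 members under each scaling and 3 in TPM.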

Other observations

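The member with the widest range over the 4 libraries was *Cd244*, at 0.521 and 1.33 CPM for EV RV and 1.87 and 0.829 CPM for Tox RV. The 3 genes of all tested whose centred log2 CPM differed least from it over the 4 libraries were *Cdh17*, a cadherin gene (root mean square difference 0.064), *E230013L22Rik* (0.109) and *Gcm2*, a transcription factor gene of the parathyroid (0.137). All 3 stayed below 3 CPM in each library. The order of the 4 libraries was the same in these genes as in *Cd244*, with Tox RV replicate 1 highest and EV RV replicate 1 lowest. This shared order follows from how the genes were picked and is not a separate finding.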
